A study of Bos taurus with 8 samples.

Results

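The initiation and elongation factors of cytoplasmic translation were examined in bovine trophectoderm outgrowths. They were taken as every gene of the table whose symbol begins with EIF followed by a digit from 1 to 6, or with EEF followed by 1 or 2, which gave 62 of 14970 genes. The rule also takes in the kinases, methyltransferases and binding proteins that act on these factors and share their names. An outgrowth is a sheet of cells that grows from the outer layer of an embryo, the layer that later forms the placenta. Each library came from the outgrowth of 1 in vitro produced embryo of Bos taurus, set on collagen IV after hatching, at day 10, and kept in a medium for trophectoderm. Of the 8 libraries, 4 were from outgrowths collected on day 35 (called A to D) and 4 from outgrowths collected on day 41 (E to H). All outgrowths shared the same plating and medium, and the days differed by 6 days of culture. The outgrowths of the 2 days were compared as separate cultures, not as 1 outgrowth followed over time. The labels of the days share only the number 1, and whether that is the same outgrowth is not given.

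Translation begins when the small ribosomal subunit, carrying initiator methionyl-tRNA on eIF2, is brought to the capped end of an mRNA by eIF4F and eIF3 and scans to a start codon. Cells set the rate mainly at the eIF2 step, which kinases slow by phosphorylating eIF2 alpha, and at the cap, where the eIF4E-binding proteins compete with eIF4G for eIF4E under the control of mTORC1. The elongation factors then deliver aminoacyl-tRNAs (eEF1) and move the ribosome along the mRNA (eEF2). Many of these factors are encoded by TOP mRNAs, which begin with a terminal oligopyrimidine tract and whose translation is controlled by mTORC1.

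Values are RPKM, reads scaled by exon length and by the authors' adjusted library size, so levels may be compared between genes. The reads behind them came to 106402848 to 158034430 per library, and the least covered member in any library, EIF5A2, still had 94 reads. Trophoblast markers were high in every library, with summed levels of 3784 to 4681 RPKM on day 35 and 2987 to 3827 RPKM on day 41, although CDX2 (4.47 to 10.3 RPKM) and ELF5 (0.156 to 0.667 RPKM) were low. Most of each sum was KRT8 (1700 to 2748 RPKM) and KRT18 (768 to 1359 RPKM). GATA3 had means of 90.1 and 93.8 RPKM on days 35 and 41, and CDH1 of 320.6 and 321.1 RPKM. The other trophoblast markers had lower means on day 41. The summed hypoblast markers reached 447 RPKM and the summed mesoderm and stroma markers 239 RPKM in library B, against at most 146 and 32.7 RPKM in any other library. Most of the hypoblast sum in B was APOA1 (336 RPKM) and AFP (95.4 RPKM). GATA4, GATA6, SOX17 and PDGFRA were at most 5.84 RPKM in any library. B was the highest library for GATA4 and PDGFRA but not for GATA6 and SOX17. Markers of immune cells, of which 2 of 4 were in the table, summed to 9.65 to 11.3 RPKM on day 35 and 12.6 to 16.5 RPKM on day 41. The rise was in CD14, with means of 8.58 and 13.1 RPKM, whereas CD68 had means of 1.99 and 1.85 RPKM. The part of other cell types in the results was not tested. Library A stood apart from the other 7. It held the highest value of the 8 libraries in 31.2% and the lowest in 29.2% of the 12582 genes tested, so results are given with and without it. In bulk RNA, fewer cells of a type and less RNA per cell cannot be told apart.

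The 62 factors were abundant as a group. Their mean levels over the 8 libraries had a median of 50.2 RPKM, against 7.12 RPKM over all genes of the table. Of the 62, 24 had a mean above 100 RPKM and 8 a mean under 10 RPKM, and all 62 passed the filter of 0.5 RPKM in at least 4 libraries. Together they took 2.07% ± 0.255 (SD, n = 4) of the reads on day 35 and 2.04% ± 0.0596 (SD, n = 4) on day 41. In library A the share was 2.45%, and in the other 3 libraries of day 35 it was 1.93% to 1.94%. The day 41 libraries lay between 1.98% and 2.11%, inside the day 35 range only because of library A.

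**Figure D1:**
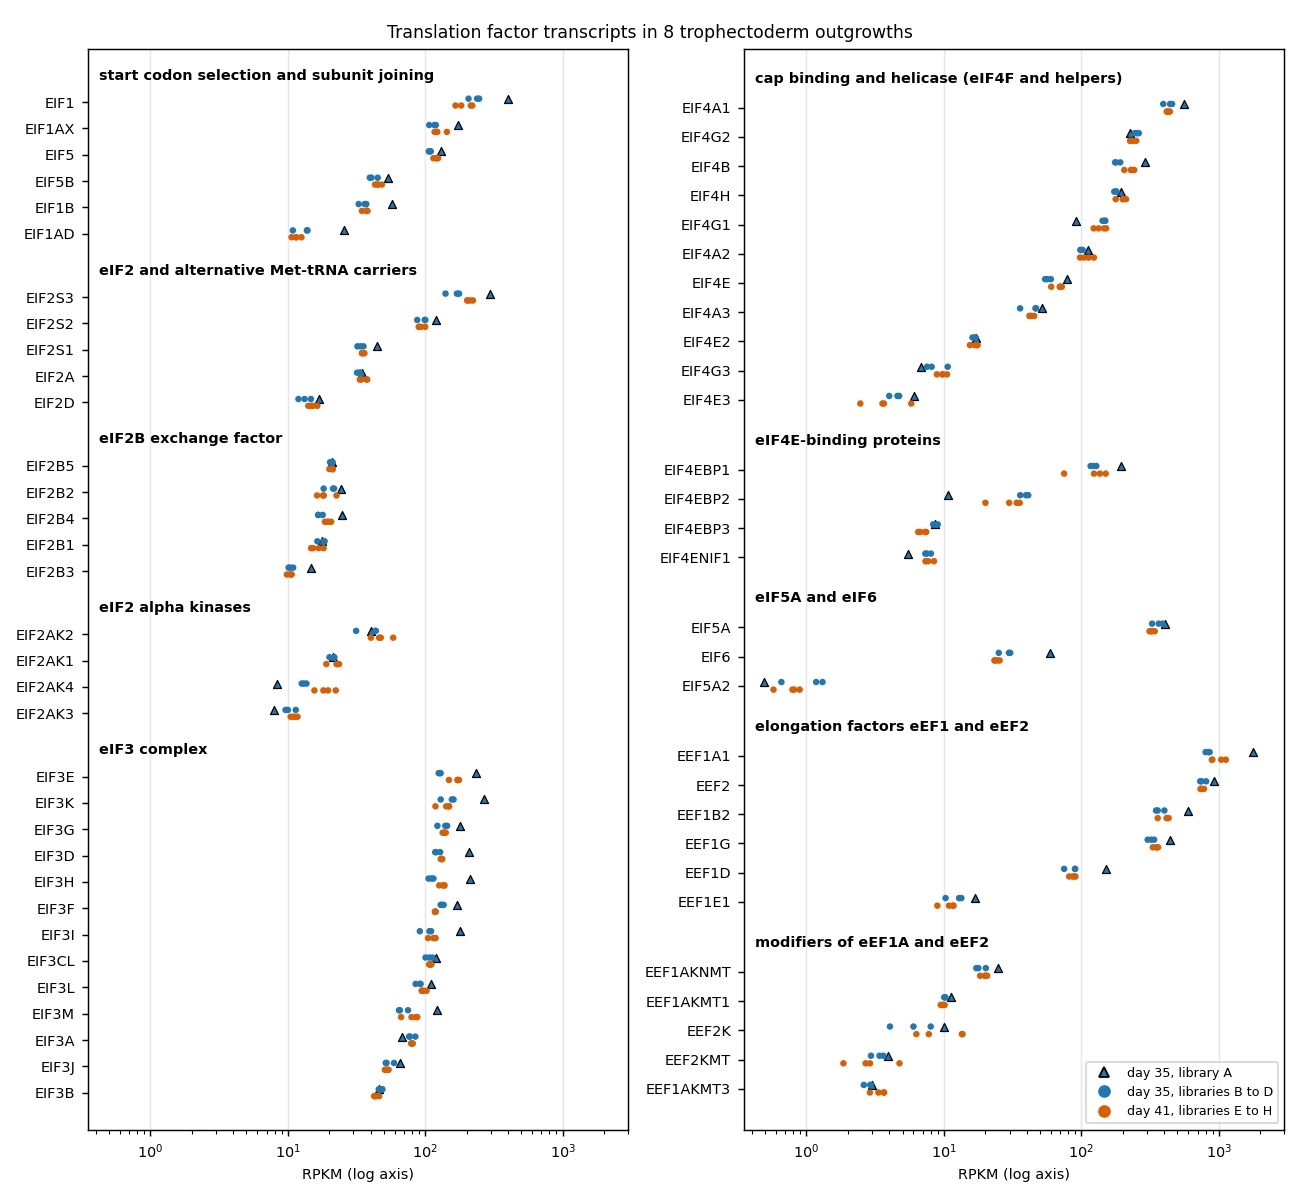
Level of each of the 62 factors in RPKM (log axis), 1 point per library, grouped by role. Blue marks day 35, with a triangle for library A, and orange marks day 41. The levels run from under 1 RPKM for EIF5A2 to 1764 RPKM for EEF1A1 in library A, and the triangles lie to the right of the other points for most factors.

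The elongation factors held the highest levels. EEF1A1 (chromosome 9, 13011231 to 13020524, minus strand, ARS-UCD1.2), which carries aminoacyl-tRNAs to the ribosome, stood at 1764, 839, 857 and 802 RPKM in A to D and at 898, 1040.3, 1124 and 890.3 RPKM in E to H. Library A was about double every other day 35 library (2.12 times their mean), and the day 41 values lay between A and the rest. At a mean of 1027 RPKM ± 317 (SD, n = 8) EEF1A1 ranked 84th in the table. EEF2 (chromosome 7, 20027762 to 20036651), the translocase, came next with 920.0, 733, 746 and 809 RPKM in A to D and 739, 754, 738 and 779.8 RPKM in E to H. Its levels varied far less, and the days overlapped. EEF1A1 was 1.92 times EEF2 in library A and 0.991 to 1.52 times EEF2 in the others. The subunits of the exchange factor that reloads eEF1A with GTP stepped down from EEF1B2 (416 ± 77.9 RPKM, SD, n = 8) to EEF1G (351 ± 42.3 RPKM) and EEF1D (94.0 ± 23.3 RPKM). EEF1B2 was above EEF1G in every library, although their spreads over the 8 libraries overlapped, and EEF1D was below both in every library. EEF1E1, a scaffold protein of the multisynthetase complex that shares the name, had 12.1 ± 2.40 RPKM. EEF1E1 had the smallest p of these 6 genes in the day comparison, with 16.9, 13.4, 12.9 and 10.3 RPKM in A to D and 11.8, 10.9, 8.95 and 11.6 RPKM in E to H. The days overlapped, and the log2 fold change was -0.27 (SE 0.15, limma-trend adjusted p = 0.522).

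The enzymes that modify the elongation factors were near the low end of the range. EEF1AKNMT, which methylates eEF1A at its amino terminus and at a lysine, led with 24.6, 20.2, 17.2 and 17.8 RPKM in A to D and 19.91, 19.95, 20.6 and 18.3 RPKM in E to H. The day 41 values fell inside the range of day 35. EEF1AKMT1, a lysine methyltransferase of eEF1A, had 10.1 ± 0.511 RPKM (SD, n = 8), and the lysine methyltransferases EEF2KMT and EEF1AKMT3 had 3.26 ± 0.874 and 3.12 ± 0.385 RPKM. EEF1AKMT3 had the smallest p of these 5 genes, with 2.98, 2.91, 2.93 and 2.61 RPKM in A to D and 3.33, 2.89, 3.68 and 3.64 RPKM in E to H. Library F lay within the day 35 range and the other day 41 libraries above it, and the log2 fold change of 0.18 (SE 0.10) had a limma-trend adjusted p of 0.520. EEF2K, the kinase that switches eEF2 off, varied widely. It had 10.1, 6.004, 4.05 and 8.01 RPKM in A to D and 6.30, 13.7, 13.5 and 7.76 RPKM in E to H. F and G were the highest and C the lowest, and its within-day SD on the log2 scale was 0.48 without library A, the largest of the 62 (0.50 over all 8 libraries, where EIF4EBP2 had 0.68).

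Among the factors that choose the start codon, EIF1 (chromosome 19, 41907220 to 41909777), which guards the fidelity of scanning, was the most abundant at 401, 238, 246 and 206 RPKM in A to D and 183, 214, 219.7 and 166 RPKM in E to H. Library A was far above the rest, and B to D overlapped with day 41. The log2 fold change was -0.44 (SE 0.20, limma-trend adjusted p = 0.446), and -0.24 without library A. EIF1AX (127 ± 20.8 RPKM, SD, n = 8), the partner of eIF1 on the small subunit, came next. The mean of EIF5 (117 ± 8.39 RPKM), which stimulates GTP hydrolysis by eIF2, lay within the spread of EIF1AX. EIF5B, the GTPase of subunit joining, had 45.0 ± 4.37 RPKM and EIF1B, a close copy of EIF1, had 38.9 ± 7.74 RPKM. EIF1 exceeded EIF1B in every library, by 4.80 to 7.52 times. EIF1AD, an eIF1A-like protein, had 25.8 RPKM in library A and 10.6 to 13.9 RPKM in the others.

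The 3 subunits of eIF2 had unequal levels. EIF2S3 (chromosome X, 119205686 to 119220743, minus strand), the gamma subunit that binds GTP and the initiator tRNA, had 295, 140.3, 176 and 169.8 RPKM in A to D and 212, 202, 222 and 202 RPKM in E to H. Without library A every day 41 value was above every day 35 value, and with it the days overlapped. The beta subunit EIF2S2 had 97.4 ± 10.0 RPKM (SD, n = 8) and the alpha subunit EIF2S1, the target of the kinases, 35.9 ± 3.83 RPKM. EIF2S3 was 1.40 to 2.48 times EIF2S2 and 3.95 to 6.57 times EIF2S1 in the 8 libraries. Exons of EIF2S1 overlap those of ATP6V1D over 36.6% of their length, so its level is uncertain to that extent. EIF2A and EIF2D, separate proteins that can carry an initiator tRNA or help reinitiation, had 34.6 ± 2.06 and 14.7 ± 1.61 RPKM. EIF2A had the smallest p of these 5 genes, with 34.8, 33.7, 33.3 and 31.9 RPKM in A to D and 37.8, 33.4, 34.3 and 37.4 RPKM in E to H. E and H were the highest and F and G within the day 35 range, and the log2 fold change of 0.09 (SE 0.076) had a limma-trend adjusted p of 0.686.

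The eIF2B subunits were closer to equal by these values. This complex recharges eIF2 with GTP and is the step that phosphorylated eIF2 blocks. EIF2B5, the catalytic subunit, had 21.002, 21.2, 20.6 and 20.3 RPKM in A to D and 21.1, 21.2, 20.1 and 21.2 RPKM in E to H. This was the smallest spread of the 62 over the 8 libraries, a coefficient of variation of 2.15%. EIF2B2 (20.1 ± 2.79 RPKM, SD, n = 8), EIF2B4 (19.3 ± 2.59 RPKM) and EIF2B1 (16.98 ± 1.43 RPKM) followed, and EIF2B3 was lowest at 10.95 ± 1.53 RPKM. The highest mean of the 5 was 1.90 times the lowest. By library the highest of the 5 was 1.68 to 2.15 times the lowest, against 3.95 to 6.57 times for EIF2S3 over EIF2S1. For EIF2S3 over EIF2S2 it was 1.40 to 2.48 times, so the contrast rests on EIF2S1, whose exons overlap another gene. EIF2B2 had the smallest p of these 5 genes, with 24.4, 21.7, 18.2 and 21.3 RPKM in A to D and 22.6, 18.3, 16.3 and 18.01 RPKM in E to H. The days overlapped, and the log2 fold change was -0.18 (SE 0.12, limma-trend adjusted p = 0.612). Its sign was not stable: it was 0.05 with array weights and 0.02 in limma-voom with quality weights.

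The 4 kinases of eIF2 alpha each answer another stress. EIF2AK2 (PKR), activated by double-stranded RNA and induced by interferon, was the most abundant with 40.2, 31.4, 43.4 and 43.7 RPKM in A to D and 47.5, 40.2, 58.4 and 46.1 RPKM in E to H. Library G was the highest and B the lowest, and of day 41 only library F lay within the range of day 35. EIF2AK1 (HRI), which answers lack of haem, had 21.6 ± 1.47 RPKM (SD, n = 8) and EIF2AK3 (PERK), the sensor of the endoplasmic reticulum, 10.4 ± 1.25 RPKM. All 4 kinases had a positive log2 fold change between the days, with and without library A. It was 0.05 (SE 0.088) for EIF2AK1, 0.18 (SE 0.11) for EIF2AK3 and 0.27 (SE 0.14) for EIF2AK2. Only 1 of the 4 had an unadjusted p under 0.05 in limma-trend, where 11.7% of all genes tested did.

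That kinase was EIF2AK4 (GCN2; chromosome 10, 35590812 to 35687969), which senses uncharged tRNA when amino acids run short. Its levels were 8.31, 12.6, 13.1 and 13.7 RPKM in A to D and 18.1, 19.6, 15.6 and 22.3 RPKM in E to H. Every day 41 library was above every day 35 library, and library A was the lowest of all. The mean was 11.9 ± 2.44 RPKM (SD, n = 4) on day 35 and 18.9 ± 2.81 RPKM (SD, n = 4) on day 41. The log2 fold change was 0.64 (SE 0.17, 95% interval 0.26 to 1.02), with a limma-trend adjusted p of 0.231, so it did not pass the threshold of 0.05. Without library A it was 0.49, with a limma-trend adjusted p of 0.103. In the authors' deposited table EIF2AK4 was the only one of the 62 past an FDR of 0.05, with a log2 fold change of 0.63 and an FDR of 0.0234, where 1.76% of all genes of the authors' deposited table passed. It also passed in both fits that gave library A less weight, at an adjusted p of 0.0251 in limma-trend with array weights and of 0.0339 in limma-voom with quality weights. These 2 fits called 8.3% and 5.18% of all genes tested, against 0.0477% in the unweighted limma-trend test.

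The eIF3 complex, the scaffold between the ribosome and the mRNA, was represented by 13 genes with means from 45.6 to 160.4 RPKM. EIF3E (chromosome 14, 56245887 to 56293897) had the highest mean, with 233, 129, 125 and 128 RPKM in A to D and 172, 149, 172 and 176 RPKM in E to H. Libraries B to D lay in a narrow band below all of day 41, and library A was above every other library. EIF3K, EIF3G, EIF3D and EIF3H followed at 159, 142, 138 and 135 RPKM, each within the spread of EIF3E. EIF3F, EIF3I, EIF3CL and EIF3L had means of 129.9, 118, 109 and 96.0 RPKM. EIF3M (80.6 RPKM), the RNA-binding core subunit EIF3A (78.2 RPKM), the loosely bound EIF3J (54.9 RPKM) and the core subunit EIF3B (45.6 RPKM) were lowest. The row for subunit c is named EIF3CL, and the RefSeq table gives EIF3C as a synonym of that symbol.

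The proportions among the eIF3 subunits differed in library A. Against the mean of B to D, EIF3A was 0.857 times and EIF3B 0.974 times as high in A, whereas EIF3H was 1.91, EIF3E 1.83, EIF3K 1.79 and EIF3M 1.78 times as high. The other 7 subunits lay between, from 1.13 times for EIF3CL to 1.73 times for EIF3I. The highest subunit was 5.74 times the lowest in library A and 2.82 to 4.04 times the lowest in the other 7 libraries.

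EIF3F (chromosome 15, 44532808 to 44541048, minus strand), a subunit with an MPN domain, had the smallest p of the complex. It had 169, 136, 132 and 129.5 RPKM in A to D and 117, 119, 118 and 119 RPKM in E to H. The 4 day 41 libraries lay close together, at 118 ± 0.626 RPKM (SD, n = 4), and all were below all of day 35. The log2 fold change was -0.25 (SE 0.099, limma-trend adjusted p = 0.392), and -0.16 without library A. EIF3E and EIF3F lay on opposite sides of 0, and 5 of the 13 subunits had a positive and 8 a negative log2 fold change.

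At the cap, the helicase EIF4A1 (chromosome 19, 27305005 to 27311552) was the most abundant, with 557, 457, 442 and 394 RPKM in A to D and 436, 423, 418 and 440.0 RPKM in E to H. The days overlapped and library A was the highest. Its copy EIF4A2 had 106 ± 9.03 RPKM (SD, n = 8), and EIF4A1 was 3.57 to 4.98 times EIF4A2. EIF4A3, the helicase of the exon junction complex, had 44.2 ± 4.57 RPKM. The helicase helpers EIF4B and EIF4H had 218 ± 38.2 and 189.8 ± 13.9 RPKM. EIF4G2, which lacks the part that binds eIF4E and serves cap-independent initiation, exceeded the main scaffold EIF4G1 in every library. The ratio was 2.47 in library A and 1.505 to 1.84 in the other 7.

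EIF4G1 was 1 of 9 factors whose lowest value was in library A. It had 91.2, 143, 149 and 148 RPKM in A to D and 133, 151, 123 and 146 RPKM in E to H, so that only A was under 100 RPKM. The cap-binding protein EIF4E had 79.2, 60.0, 56.4 and 54.4 RPKM in A to D and 72.1, 69.6, 60.3 and 69.8 RPKM in E to H, with A the highest and B to D the lowest of the 8. EIF4E over EIF4G1 was 0.868 in library A and 0.368 to 0.541 in the others. The related EIF4E2, known mainly as a repressor of translation, was steady at 16.8 ± 0.689 RPKM (SD, n = 8), and EIF4E3 had 4.35 ± 1.19 RPKM. EIF4G3 had the smallest p of these 11 genes, with 6.76, 8.14, 7.54 and 10.7 RPKM in A to D and 10.5, 9.73, 8.88 and 9.81 RPKM in E to H. Library D was the highest of all and the days overlapped, with a log2 fold change of 0.23 (SE 0.13, limma-trend adjusted p = 0.550).

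The eIF4E-binding proteins, which block the assembly of eIF4F when mTORC1 is off, differed in their behaviour. EIF4EBP1 (chromosome 27, 33247066 to 33269501) had 194, 122, 117 and 128 RPKM in A to D and 124, 136, 150.4 and 74.9 RPKM in E to H. Library A was the highest, H the lowest, and the other 6 ran from 117 to 150.4 RPKM. EIF4EBP2 (chromosome 28, 26606343 to 26631731) had 10.7, 35.9, 41.0 and 39.6 RPKM in A to D and 29.8, 33.8, 20.04 and 35.6 RPKM in E to H. Library H, the lowest for EIF4EBP1, was in the middle for EIF4EBP2. Libraries A and G were the lowest for EIF4EBP2 and the highest for EIF4EBP1. EIF4EBP1 was 18.1 times EIF4EBP2 in A, 7.50 times in G and 2.11 to 4.14 times in the other 6 libraries. Relative to the mean of B to D, EIF4EBP2 in library A was 0.276 times as high, the lowest ratio of the 62.

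EIF4EBP3 (chromosome 7, 51722071 to 51724000) was the third factor whose days did not overlap. It had 8.59, 8.82, 9.02 and 8.35 RPKM in A to D and 6.73, 7.28, 7.43 and 6.504 RPKM in E to H. All day 41 values were below all day 35 values, and library A was in the middle of its group. The mean was 8.69 ± 0.289 RPKM (SD, n = 4) on day 35 and 6.99 ± 0.439 RPKM (SD, n = 4) on day 41. The log2 fold change was -0.28 (SE 0.085), and -0.29 without library A, with a limma-trend adjusted p of 0.275. In the authors' deposited table its log2 fold change was -0.32 with an FDR of 0.886. EIF4ENIF1, which takes eIF4E into the nucleus and into P-bodies, had 7.40 ± 0.882 RPKM (SD, n = 8).

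**Figure D2:**
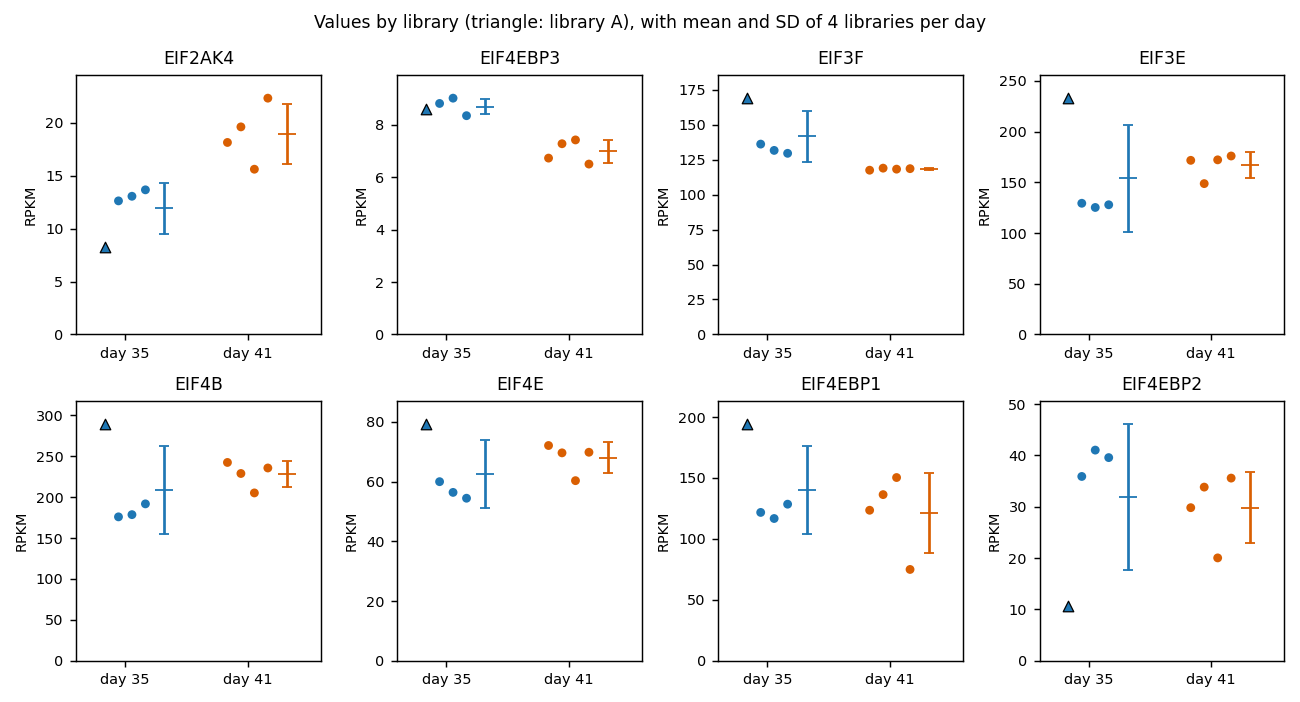
RPKM of 8 factors in each library (points, with a triangle for library A), with the mean and SD of the 4 libraries per day beside them. The days do not overlap for EIF2AK4, EIF4EBP3 and EIF3F, whereas for EIF3E, EIF4B and EIF4E library A lies above all of day 41 and libraries B to D lie below it.

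EIF5A, the hypusine-bearing factor that helps the ribosome past proline-rich stretches, had 406, 389, 365 and 327 RPKM in A to D and 325, 313, 322 and 342 RPKM in E to H, and the days overlapped only through D and H. Its copy EIF5A2 was near the floor of the group at 0.838 ± 0.284 RPKM (SD, n = 8), and EIF5A was 250 to 831 times as high. EIF6 (chromosome 13, 64544773 to 64553147, minus strand), which keeps the large subunit from joining too early, had 59.4, 29.7, 30.4 and 25.1 RPKM in A to D and 23.4, 24.5, 25.4 and 23.4 RPKM in E to H. Library A was about double the others, and D lay within the range of day 41. The log2 fold change was -0.48 (SE 0.23, limma-trend adjusted p = 0.473) and -0.22 without library A.

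Between the days, none of the 62 factors passed the limma-trend test at an adjusted p of 0.05, and 6 of 12582 genes did (0.0477%). At an unadjusted p under 0.05 there were 3 factors, EIF2AK4 with the higher level on day 41 and EIF3F and EIF4EBP3 with the lower level. That is 4.84% of the 62, against 11.7% of all genes tested. The same 3 were the factors whose days did not overlap, where 8.2% of all genes tested did not overlap. The median log2 fold change of the 62 was -0.02, and that of all genes tested was 0.01. Of the 62, 28 had a positive and 34 a negative log2 fold change, and the median size without sign was 0.10. The 95% intervals, on log2(RPKM + 1), were not adjusted for the number of genes. Of these, 59 of 62 lay within a log2 fold change of 1 in either direction and 43 of 62 within 0.5. This scale narrows the intervals of low genes. EIF5A2 counted as within 0.5 with an SE of 0.16, where limma-voom gave it an SE of 0.34.

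By role, all 3 genes of the eIF5A and eIF6 group and 5 of 6 elongation factors had a negative log2 fold change, and all 4 eIF2 alpha kinases and 7 of 11 cap and helicase genes a positive one. Without library A, the elongation factors had 4 of 6 positive and the eIF3 complex 9 of 13, and the kinases 4 of 4. No difference between role groups was tested.

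Without library A the counts changed. No factor passed at an adjusted p of 0.05 in limma-trend, where 43 of 12582 genes did. At an unadjusted p under 0.05 there were 12 factors, 19.4% of the 62, against 19.6% of all genes tested. Of the 12, 9 were higher on day 41 (EEF1A1, EIF2AK4, EIF2B4, EIF2S3, EIF3E, EIF3H, EIF4B, EIF4E and EIF5) and 3 lower (EIF3F, EIF4EBP3 and EIF6). The days did not overlap in 14 factors, 11 higher and 3 lower on day 41, which is 22.6% of the 62, against 19.5% of all genes tested. The median log2 fold change of the 62 was then 0.03, with 38 positive. Leaving out library D instead gave 10 factors with an unadjusted p under 0.05, 16.1% of the 62, against 13.6% of all genes tested.

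Library A had an array weight of 0.128, the lowest of the 8, and the highest weight was 4.00, for library E. With array weights, limma-trend called 4 factors higher and 1 lower on day 41, with 8.3% of all genes called. With limma-voom and quality weights on the recovered reads, 3 factors were called higher and none lower, with 5.18% of all genes called. EIF2AK4, EIF3E and EIF4B were called in both of these fits, and EIF4E and EIF4EBP3 in the first. The shares of the 62 called, 8.06% and 4.84%, were near these backgrounds.

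For EIF3E, EIF4B and EIF4E the size of the difference depended on library A. EIF3E had a log2 fold change of 0.17 (SE 0.20, limma-trend adjusted p = 0.788), which was 0.39 without library A (limma-trend adjusted p = 0.072) and 0.39 with array weights (limma-trend adjusted p = 0.0326). EIF4B had 289, 176, 179 and 192 RPKM in A to D and 242, 229, 205 and 236 RPKM in E to H. Without library A every day 41 value of EIF4B was above every day 35 value. Its log2 fold change was 0.16 (SE 0.16, limma-trend adjusted p = 0.758), and 0.32 without library A. EIF4E had a log2 fold change of 0.13 (SE 0.13, limma-trend adjusted p = 0.733), and 0.25 without library A.

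**Figure D3:**
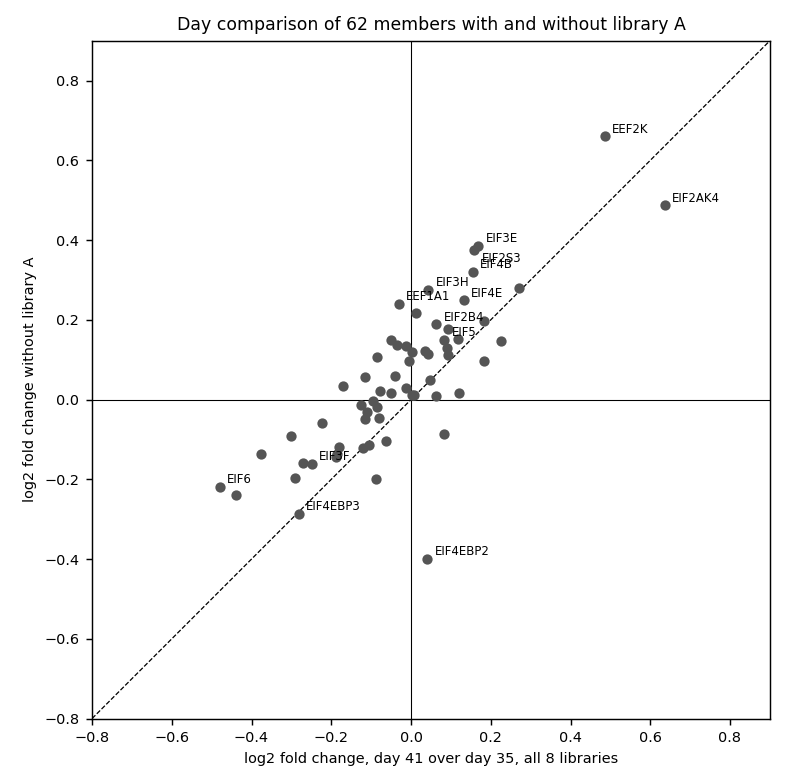
Log2 fold change of day 41 over day 35 for the 62 factors with all 8 libraries (x axis) and without library A (y axis), 1 point per gene, with the line of equality dashed. Most points lie above the line, EIF2AK4 lies at 0.64 and 0.49, and EIF4EBP2 moves from near 0 to -0.40.

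Library A held the highest value of the 8 libraries in 40 of the 62 factors and the lowest in 9. Among the 11 factors on the TOP list it was the highest in 10, and EIF3A was the exception. The median log2 difference between A and the mean of B to D was 0.66 for the 11 TOP factors and 0.27 for the other 51, against 0.02 for all genes tested and 0.95 for 81 ribosomal protein genes, the best known TOP mRNAs. With the libraries scaled by their totals, these were 0.47 for the TOP factors, 0.08 for the other factors and -0.14 for all genes. Ribosomal protein genes took 9.26% of the reads in library A and 5.11% to 6.48% elsewhere. Set against the other 3 libraries of its day, A had a median log2 difference of 0.32 over the 62 factors. By the same measure, with A among the libraries they were set against, D, C and B had -0.17, -0.07 and -0.06 over the 62 and -0.26, -0.15 and -0.17 over the TOP factors. No day 41 library was further than 0.044 from 0 in either set.

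Exon length moved with the same difference. Over all genes tested, the median log2 difference between A and the mean of B to D was 0.26 for genes with under 1737 bases of exon, 0.07 for the middle group and -0.23 for genes over 3011 bases. Among the 62 factors it was 0.53 for the 20 shortest, 0.32 for the 23 in the middle and 0.04 for the 19 longest. A was the higher in 18 of the 20 shortest, 22 of the 23 in the middle and 11 of the 19 longest. Of the longest, EEF1A1 and EIF6 were about double in A. EIF4G1, EIF2AK4 and EIF4G3, also long, were 0.622, 0.633 and 0.770 times the mean of B to D. The lowest against B to D were EIF4EBP2, of middle length, and EIF5A2, which was short and had the fewest reads. The part of exon length and of RNA quality in these values was not tested.

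**Figure D4:**
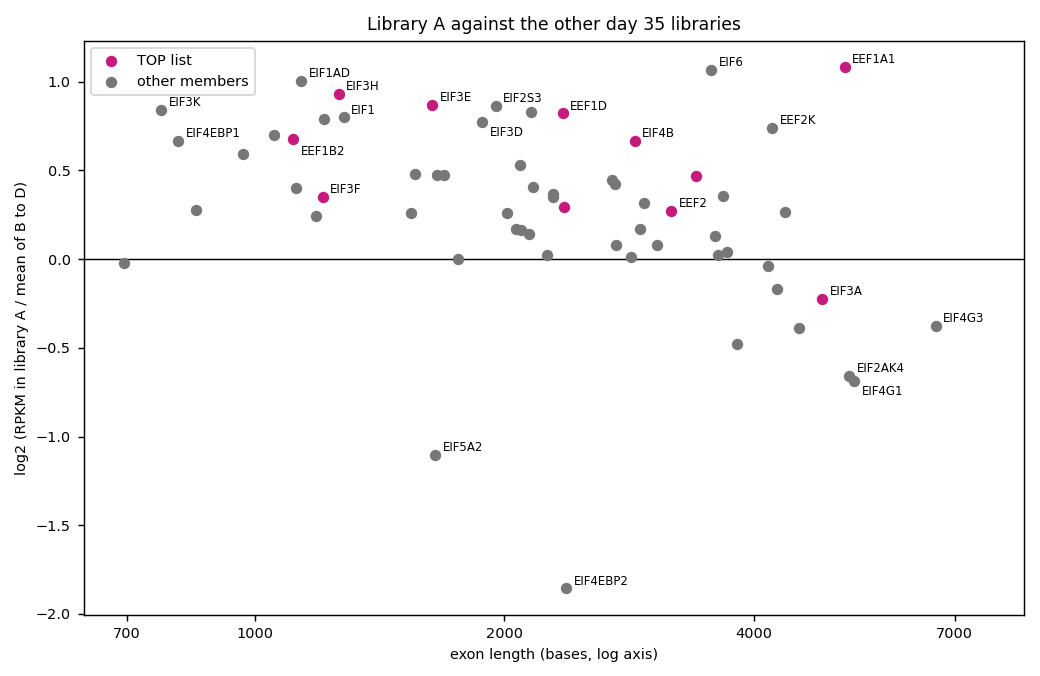
Log2 ratio of the level in library A over the mean of libraries B to D for each of the 62 factors, against exon length in bases (log axis), with the 11 TOP factors in pink. The pink points lie above 0 except EIF3A, which is below it, and EIF4G1, EIF4G3 and EIF2AK4, with long exons, lie below 0.

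The median within-day SD on the log2 scale was 0.17 for the 62 and 0.21 for all genes tested, and 0.091 and 0.15 without library A. The 11 TOP factors stood above all genes with library A (0.25) and below them without it (0.066). Without library A the steadiest factor was EIF3F (SD 0.024), followed by EEF1AKMT1 (0.029) and EIF2B5 (0.034). The most variable after EEF2K were EIF4EBP1 (0.35), EEF2KMT (0.33), EIF4E3 (0.32), EIF4EBP2 (0.29) and EIF2AK2 (0.24).

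The genes around these factors were counted in the same way. Of 23 genes of mTORC1 and translational control, none passed the limma-trend test at an adjusted p of 0.05, 1 had an unadjusted p under 0.05 with the higher level on day 41 and 2 with the lower level, 3 of 23 in all, near the 11.7% of all genes. Without library A there were 4 of 23 (17.4%, against 19.6% of all genes). The lower pair were ATF4, the transcription factor whose mRNA is translated when eIF2 is phosphorylated, and MLST8, an mTORC1 subunit. ATF4 had 574, 401, 352 and 339.7 RPKM in A to D and 279, 243, 280.1 and 189.6 RPKM in E to H. Every day 41 library was below every day 35 library, with a log2 fold change of -0.73 (SE 0.20, limma-trend adjusted p = 0.236) and -0.57 without library A. In the authors' deposited table ATF4 had an FDR of 0.0224. TSC2, an inhibitor of mTORC1, was the higher one, with a mean of 12.3 ± 2.11 RPKM at the earlier day and of 15.8 ± 0.746 RPKM at the later one (SD, n = 4 each, limma-trend adjusted p = 0.334).

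Of 10 genes of the poly(A)-binding, release and recycling group and 9 of the diphthamide and hypusine enzymes, none had an unadjusted p under 0.05. Without library A, PAIP2, an inhibitor of poly(A)-binding protein, passed with a log2 fold change of 0.50 (limma-trend adjusted p = 0.0486), where 43 of 12582 genes passed. Of 10 selenocysteine and mitochondrial translation factors, 1 had an unadjusted p under 0.05 with all 8 libraries. This was GFM2, a mitochondrial recycling factor, with means of 8.65 ± 0.653 RPKM in A to D and 10.9 ± 0.748 RPKM in E to H (SD, n = 4 each, limma-trend adjusted p = 0.286). Of 87 TOP mRNAs outside the 62, none had an unadjusted p under 0.05, and 26 had a positive and 61 a negative log2 fold change. Without library A the signs turned: 84 were positive and 3 negative, with a median of 0.20, and 39 of the 87 (44.8%) had an unadjusted p under 0.05, all with the higher level on day 41, against 19.6% of all genes. At an adjusted p of 0.05 in limma-trend, 1 of the 87 then passed, against 43 of 12582 genes. It was RPS4X, a protein of the small subunit, with a log2 fold change of 0.52 (limma-trend adjusted p = 0.0441). The direction of the TOP mRNAs between the days therefore rested on library A.

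Exons of 8 of the 62 factors overlapped another gene of the table. The overlap was 36.6% of the exon length for EIF2S1 (with ATP6V1D), 21.05% for EEF2KMT (with ALG1), 15.6% for EIF2AK2 (with GPATCH11) and 15.4% for EIF4A3 (with CARD14), and 7.00% or less for EEF1AKMT3, EIF2S2, EIF2B4 and EIF3I. Whether the counting used strand is not given in the sources used here, so their levels are uncertain to that extent. EEF1A1, EIF1, EIF5A, EIF4A1 and EIF3CL have near-identical copies in mammalian genomes, and reads may be split or shared between them.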

How the data were processed

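The deposited table holds RPKM computed by the authors for each of 8 libraries, with exon lengths, coordinates and symbols. It also holds the authors' own day comparison, as deposited: log2 fold changes, p-values and FDR. Per the submitters' processing notes, the tools were HISAT2, featureCounts, edgeR and FastQC and the build was ARS-UCD1.2, with no versions. The 8 library columns carry the day only, so libraries were lettered in column order, and groups are the days (4 and 4).

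RPKM times exon length, divided by the smallest step of each library, was whole (to 0.01) for 100% of values, which gave the reads. They are PCR products without molecular identifiers, so error was taken from the spread between outgrowths. Each outgrowth came from an individual embryo, per the labels.

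The limma-trend test of limma 3.58.1 (R 4.3.3, two-sided, no covariate) compared the days on log2(RPKM + 1) over 12582 genes reaching 0.5 RPKM in at least 4 libraries, with Benjamini-Hochberg adjustment and a threshold of 0.05. These fold changes understate those of low genes. Tables and plots were made in Python 3.11.15. The fit was run on simulated data with the same spread for every gene and no library set apart, so that run does not cover a library like A. Alternatives were pseudocounts of 0.1 and 0.5, no filter or 1 RPKM, median-of-ratios and total scaling, array weights, limma-voom with and without quality weights on the recovered reads, and each library left out.

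The members and lists were chosen with earlier results of these data known. Full statistics went to factors with an unadjusted p under 0.05, to the smallest p of each role and to those past the authors' FDR. EIF3E, EIF4B and EIF4E were added after their values were seen, as were single values given for library A and for spread. The ribosomal protein list was narrowed after the data were seen, to drop kinases and a binding protein. The TOP list is from human and mouse. Of the 62 symbols, 61 matched the RefSeq table by symbol.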

Additional observations from a re-analysis of the deposited data

Results flagged for a closer look

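Within each day, the highest and the lowest library of every factor were set against the other 3 of that day by Dixon's criterion, in 124 groups of 4. It picked out 15 values, where chance picks out about 1 in 20 groups. The groups share the same 8 libraries and are not independent, and the share of all genes picked out was not computed. Of the 15, 13 were in library A. That library held the highest value in 31.2% and the lowest in 29.2% of all 12582 genes tested. On day 35 library A stood above B to D for EEF1A1 (1764 RPKM, the others at most 857 RPKM), EIF3E (233 RPKM, at most 129 RPKM), EIF3H (211 RPKM, at most 115 RPKM), EIF3D (209 RPKM, at most 128 RPKM) and EIF3F (169 RPKM, at most 136 RPKM). The same held for EIF4B (289 RPKM, at most 192 RPKM), EIF4EBP1 (194 RPKM, at most 128 RPKM), EIF5 (129.7 RPKM, at most 109.7 RPKM), EIF6 (59.4 RPKM, at most 30.4 RPKM), EIF2B4 (24.6 RPKM, at most 17.9 RPKM) and EEF1AKMT1 (11.2 RPKM, at most 10.2 RPKM). Library A stood below B to D for EIF4G1 (91.2 RPKM, the others at least 143 RPKM) and EIF4EBP2 (10.7 RPKM, at least 35.9 RPKM). On day 41, library F was low for EIF3E (149 RPKM, the others at least 172 RPKM) and library G was low for EIF2B5 (20.1 RPKM, the others at least 21.1 RPKM). No cause of these values was tested.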

How the results depend on the processing

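No factor was called between the days in the limma-trend test, nor with other pseudocounts, filters or scalings, in limma-voom, or with any single library left out (0 to 0 in each direction). Array weights called 4 higher and 1 lower, and limma-voom with quality weights 3 higher. The count at an unadjusted p under 0.05 was 3. It was 5 with library totals (8.06% of the 62, against 11.9% of all genes), 17 with array weights (27.4%, against 28.3%), 17 with quality weights (27.4%, against 26.4%), and 2 to 12 with 1 library left out, the highest without A (19.4%, against 19.6%) and the next (10) without D. Non-overlapping days numbered 3 (4.84% of the 62, against 8.2% of all genes tested), and 14 without library A (22.6%, against 19.5%). The median log2 fold change of -0.02 ranged from -0.07 to 0.03 with 1 library left out, and was 0.01 with library totals. The share of reads was 1.94% to 2.11% on day 35 and 2.02% to 2.06% on day 41 with 1 library left out, and on day 41 it was 2.15% without mitochondrially encoded genes. With library totals the median log2 difference of library A from B to D was 0.47 for TOP factors and 0.078 for the others. EIF2B2 turned to 0.046 with array weights and 0.020 with quality weights. The cause of these shifts was not tested. Of the other alternatives run for named factors, 211 kept their direction and side of the threshold and 8, all in the 2 weighted fits, kept their direction and passed it. No paired analysis was possible because the days share only the number 1 in the labels and the columns carry no number. The depth of at least 94 reads per factor and library limits EIF5A2 most.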
